A study of Mus musculus with 4 samples.

Results

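The type I interferon response module is a list of 37 mouse genes that cells transcribe in answer to interferon alpha and beta. Members were found by their symbols among the 32285 genes of the deposited features, and 36 of the 37 were present. Mx1, which encodes an antiviral GTPase, was the member not analysed here. The list was made from known interferon-induced genes and not from differences between the samples.

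Wildtype mice were injected with tumor cells and the lymph nodes draining the tumor were taken on day 8. One group ate control chow, and the other was switched on day 3 to chow holding RGX-104, a small molecule that activates the liver X receptors (LXR). T cells and antigen-presenting cells (APCs) sorted from the nodes were put through the 10x 5' single-cell assay, which gave 1 RNA library per group. All mice carried the tumor, so neither library shows a node without one, and the number of mice behind each library and the tumor line are not given in the sources used here. With 1 library per group there is no spread between replicates and no test: the values describe these 2 libraries.

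Interferon alpha and beta are released by cells that sense foreign or misplaced nucleic acid, and plasmacytoid dendritic cells (pDC) are a specialised source. They bind the receptor made of IFNAR1 and IFNAR2, whose kinases activate transcription factors such as STAT2, which joins IRF9 in the complex ISGF3. ISGF3 binds the interferon-stimulated response element (ISRE) in promoters and switches on sensors, antiviral effectors and feedback genes. Many of the same genes also answer interferon gamma, so their transcripts do not tell which interferon was present.

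The ISRE is a sequence feature that many members share, and 5 promoters are printed to show how it is placed. They were chosen because Isg15 and Bst2 are abundant members with differences described below, Ifit1 and Rsad2 encode textbook antiviral effectors, and Herc6 has no match. Each is the 200 bases before the RefSeq transcription start on GRCm38.p6, 5′ to 3′ on the strand of the gene. Capitals mark an ISRE match, searched as GAAA, any 2 bases and GAAA, or TTTC, any 2 bases and TTTC for the opposite strand, with overlapping matches run together.
Isg15, chr4:156200819-156201018, minus strand: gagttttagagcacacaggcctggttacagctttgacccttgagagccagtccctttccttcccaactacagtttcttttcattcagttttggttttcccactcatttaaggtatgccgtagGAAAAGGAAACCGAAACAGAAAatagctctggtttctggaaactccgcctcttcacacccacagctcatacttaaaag
Bst2, chr8:71537473-71537672, minus strand: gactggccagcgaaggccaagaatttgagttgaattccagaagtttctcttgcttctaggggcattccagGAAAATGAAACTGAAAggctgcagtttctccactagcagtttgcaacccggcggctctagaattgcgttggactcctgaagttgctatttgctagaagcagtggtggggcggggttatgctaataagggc
Ifit1, chr19:34640689-34640888, plus strand: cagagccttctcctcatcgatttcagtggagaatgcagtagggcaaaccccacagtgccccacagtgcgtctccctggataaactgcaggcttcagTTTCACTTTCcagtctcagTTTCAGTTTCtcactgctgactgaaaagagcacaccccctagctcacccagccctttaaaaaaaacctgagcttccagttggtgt
Rsad2, chr12:26456453-26456652, minus strand: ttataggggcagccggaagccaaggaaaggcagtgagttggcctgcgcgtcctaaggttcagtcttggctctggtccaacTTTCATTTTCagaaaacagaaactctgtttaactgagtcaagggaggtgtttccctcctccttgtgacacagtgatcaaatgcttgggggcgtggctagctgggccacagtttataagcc
Herc6, chr6:57580792-57580991, plus strand: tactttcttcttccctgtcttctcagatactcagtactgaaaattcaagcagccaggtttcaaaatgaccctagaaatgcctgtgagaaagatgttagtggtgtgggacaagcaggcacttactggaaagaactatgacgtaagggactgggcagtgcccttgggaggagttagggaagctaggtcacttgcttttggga

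Isg15 held 3 overlapping matches, whose first bases lay 78, 72 and 66 bases before the start. Bst2 held 2 overlapping matches at 130 and 124 bases, Ifit1 held 2 separate matches at 104 and 85 bases, and Rsad2 held 1 match at 120 bases. The table of promoters covered 28 members in windows of 300 bases, 250 before and 50 after the start, and 15 of these 28 (53.6%) held an ISRE match. Of all 27025 genes listed, 1079 (3.99%) held one. The 15 were Bst2, Ddx58, Eif2ak2, Ifi203, Ifi213, Ifih1, Ifit1, Ifit3, Ifit3b, Isg15, Oas1a, Oas3, Rsad2, Stat2 and Trim30a. The gamma-activated site TTCNNNGAA, an element of the interferon gamma response, was in 6 of the 28 members (21.4%) and in 9.55% of all genes. Some genes had several windows, and a gene counted if any of them matched. The LXR element, searched as AGGTCA, any 4 bases and AGGTCA, was in 0 of the 28 and in 4 of all genes (0.0148%), so this strict form says little about either. A match is a run of letters in this window and was not tested as a binding site.

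Unique molecular identifiers (UMIs), each counting 1 captured transcript, totalled 31530931 over 7346 barcodes for control chow and 38480769 over 8671 barcodes for RGX-104. The authors' tables name 782 control and 949 RGX-104 APCs and 2099 control and 1995 RGX-104 T cells, each split into types by clustering on all genes, members included. Median depth per APC was 8052 UMIs (control) and 9043 UMIs (RGX-104), and per T cell 4944 and 5048 UMIs. The libraries had 95 barcode sequences in common, 15 of them among annotated cells. The 5 T cell markers summed to 28.3 and 27.7 CPM in control and RGX-104 APCs and to 3301 and 3003 CPM in T cells. CPM is a gene's UMIs scaled to 1000000 UMIs of the same cells, and since UMIs mark 1 end of a transcript no length enters it. Ratios are RGX-104 over control. Intervals in brackets are 95% intervals, which cover counting error only, not the spread between mice or libraries. Of the 22 annotated types, 14 that had 50 cells or more in both libraries were compared, 6 of APCs and 8 of T cells.

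The summed module was highest among APCs in pDC, monocytes (mono) and pre-DC2, and lowest in migratory conventional dendritic cells of type 2 (mcDC2) and migratory Langerhans cells (mLC). In control pDC it stood at 8317 CPM and in RGX-104 pDC at 11630 CPM, from 53 and 9 cells. In mono it stood at 5549 and 6276 CPM, and in pre-DC2, with 24 and 21 cells, at 4498 and 4550 CPM. Migratory type 1 dendritic cells (mcDC1) had 1990 and 1412 CPM. Resident type 2 dendritic cells (rcDC2) had 1901 and 2064 CPM, and resident type 1 cells (rcDC1) had 1070 and 1218 CPM. At the lower end mcDC2 had 966 and 738 CPM and mLC 915 and 863 CPM. Neighbouring pairs in this order had overlapping intervals in 6 of 9 cases on control chow, from mcDC1 downwards, and in 2 of 9 on RGX-104.

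Among T cells the authors' IFN-responsive T cells, which the clustering drew from genes such as these, stood highest, at 10831 CPM (39 cells) and 8885 CPM (70 cells). Follicular helper T cells (Tfh) had 5553 and 5281 CPM, and regulatory T cells (Treg) had 5424 and 6467 CPM. The 3 Th1 types lay between 1847 and 2471 CPM and the 3 CD8 types between 1632 and 1960 CPM. The lowest level was that of Bcat1+ T cells, at 1034 and 1060 CPM. Of 11 neighbouring pairs, 6 overlapped on control chow and 3 on RGX-104.

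The genes Bst2, Ifi27l2a and Ly6a made up much of the sum, and they set part of this order. Bst2, which encodes the membrane tether that holds budding virions, gave 58.2% of module UMIs in control pDC and 40.1% in RGX-104 pDC. Ifi27l2a, a small mitochondrial membrane protein gene, gave 48.5% and 34.0% in mono, 62.2% and 55.6% in Tfh, and 52.3% and 50.2% in Treg. Ly6a encodes the surface protein Sca-1. Without these 3 genes mono stood highest among APCs in both libraries, at 2485 and 3126 CPM, above pDC at 1411 and 1734 CPM. Treg had 1515 and 1779 CPM without them and Tfh 1323 and 1418 CPM, closer to the other T cell types. The span from the highest to the lowest type was 9.09-fold in APCs on control chow and 15.7-fold on RGX-104, or 4.53-fold and 5.77-fold without the 3 genes. In T cells it was 10.5-fold and 8.38-fold, and 17.5-fold and 11.8-fold without them.

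**Figure D1:**
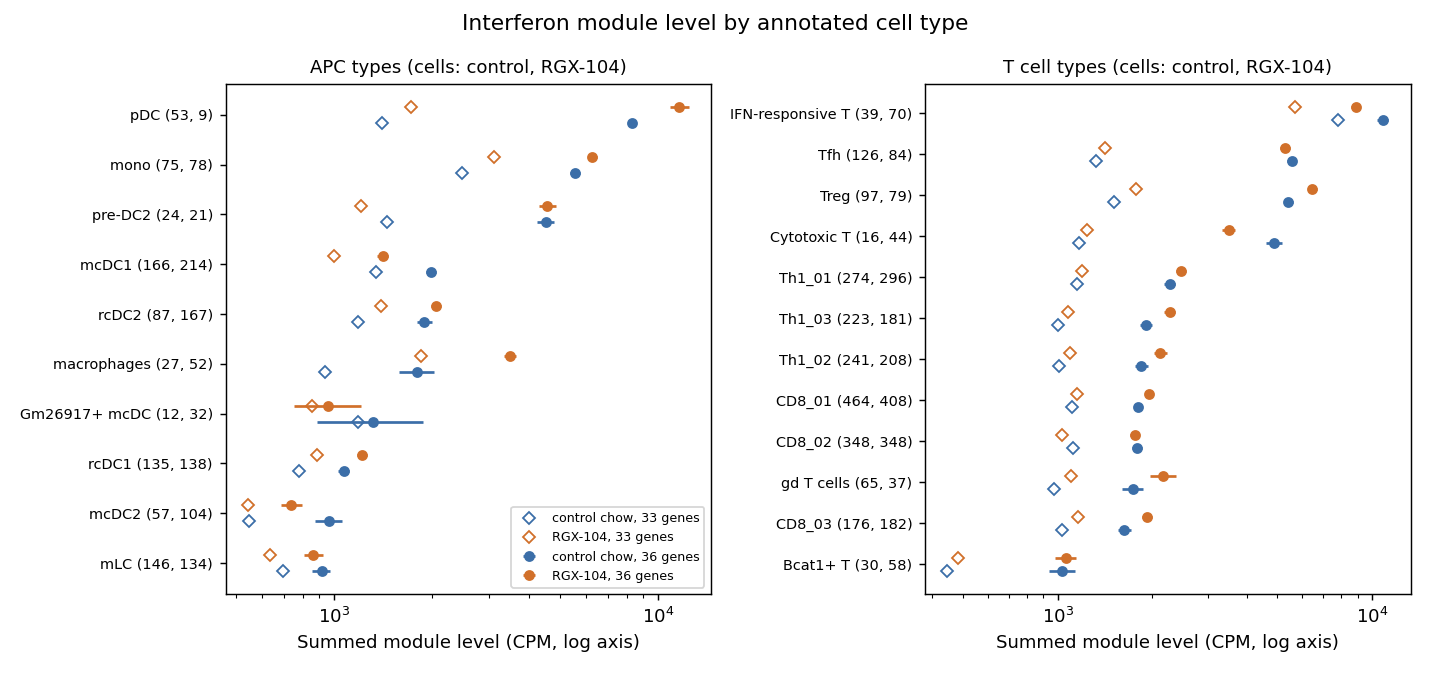
Summed module level in CPM (log axis) for each annotated type, with cell numbers beside the type names, in the control and RGX-104 libraries. Filled points with 95% counting intervals are the 36 genes and open diamonds the 33 genes without Ly6a, Bst2 and Ifi27l2a. Among APCs pDC and mono lie furthest right, at 8317 and 5549 CPM in the control library, and the distance from Tfh and Treg to the other T cell types shrinks in the open diamonds.

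Among the compared APC types, which leave out pDC, mono was highest for the sum and for most members. Of the 36 members, 25 were highest in mono among the 6 compared APC types on control chow, 29 on RGX-104 and 24 on both. In T cells Treg was the highest of the 8 compared types for 16 and 19 members, 11 in both libraries. No minimum of UMIs was set for these counts, so scarce members enter them. The share of all genes highest in mono or in Treg was not counted. Treg had the fewest UMIs of the 8 types, 640361 on control chow and 537516 on RGX-104. Exceptions among the APCs were Herc6, highest in mLC in both libraries, Oasl1, highest in mcDC1 in both, and Usp18, whose highest type was mcDC1 on control chow and mcDC2 on RGX-104. For Isg15 it was mcDC1 on control chow and mono on RGX-104.

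Over all APCs pooled, the summed module was lower in the RGX-104 library while 23 of 35 single members had log2 ratios above 0. The sum stood at 2247 CPM (2212 to 2281) and 1959 CPM (1931 to 1986), which gives a ratio of 0.872 (0.854 to 0.890). Of 35 members measured, that is with at least 50 UMIs over both libraries, 5 were at least 1.5-fold higher and 1 was at least 1.5-fold lower. Of all 10346 measured genes 4.14% were at least 1.5-fold higher and 4.44% at least 1.5-fold lower. The median log2 ratio of the 35 was 0.23, against -0.06 over all genes. With each cell thinned to 2000 UMIs the median was -0.06, over 24 members, and 1 member was at least 1.5-fold higher. Without Ly6a, Bst2 and Ifi27l2a the sum went the other way, from 1101 to 1163 CPM, a ratio of 1.06 (1.03 to 1.09).

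The makeup of the pooled APCs moved alongside these values. The cells named pDC numbered 53 (control) and 9 (RGX-104), and the 9 pDC markers, Bst2 among them, summed to 1389 and 409 CPM. The cells named macrophages numbered 27 and 52, with median depths of 4415 and 11398 UMIs, and the 6 macrophage markers summed to 216 and 612 CPM. Without pDC the pooled module ratio was 1.04, and without macrophages it was 0.823. Without macrophages the members at least 1.5-fold higher numbered 1 in place of 5, Rtp4 at 1.64, and Ifit2 stood at 1.38, Oas2 at 1.48, Ifi213 at 1.49 and Zbp1 at 1.36, while the members lower 2 in place of 1. A pooled value alone does not tell fewer cells of a type from fewer transcripts per cell, so values by type are given below.

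In pooled T cells the module was slightly higher in the RGX-104 library, at 2482 CPM (2453 to 2511) against 2648 CPM (2618 to 2679). The ratio was 1.07 (1.05 to 1.08), and 1.06 (1.03 to 1.08) without the 3 genes. Of the 35 measured there, 0 passed 1.5-fold in either direction, against 2.92% and 1.66% of all 10214 measured genes. The log2 ratio was above 0 for 24 of the 35, with a median of 0.10 against -0.01 over all genes. Without the cells named IFN-responsive T, the pooled ratio was 1.04.

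Within single types the module differed in opposite directions. Among APCs it was lower in the RGX-104 library in mcDC1, with a ratio of 0.710 (0.674 to 0.748), and in mcDC2, with 0.765 (0.678 to 0.864). It was higher in mono at 1.13 (1.08 to 1.19), in rcDC1 at 1.14 (1.08 to 1.20) and in rcDC2 at 1.09 (1.02 to 1.16), while the interval in mLC at 0.943 (0.860 to 1.03) included 1. The mcDC2 value rested partly on 1 control cell with 23.5% of the module UMIs of that type, and the ratio was 0.939 without the cell richest in module UMIs in each library. Without the 3 genes mcDC1 stood at 0.744 (0.699 to 0.792), mono at 1.26 (1.17 to 1.35), although 1.02 without Ly6a alone, rcDC1 at 1.14 (1.07 to 1.21), rcDC2 at 1.18 (1.09 to 1.28) and mcDC2 at 0.988 (0.847 to 1.15). The difference between one type and another was not tested.

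Counts of members in these APC types were as follows. In mcDC1, of 18 members measured, 0 were 1.5-fold or more higher and 3 were 1.5-fold or more lower, against 4.46% and 5.6% of all genes measured there, and the log2 ratio of 3 of the 18 was above 0. The members of mcDC1 were thus mostly on the lower side, with a median log2 ratio of -0.27. In mono 5 of 26 were higher and 1 lower, against 7.8% and 10%, with a median of 0.28. In rcDC1 6 of 22 were higher and 0 lower, against 4.2% and 3.45%, with a median of 0.21. In rcDC2 7 of 26 were higher and 2 lower, against 6.77% and 3.98%, with a median of 0.19. In each of these 3 types more members lay above the 1.5-fold line than below it. In mLC 0 of 12 were higher and 2 lower, against 4.08% and 4.76%, and in mcDC2 2 of 8 were higher and 1 lower, against 6.39% and 7.34%.

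In T cells the interval lay above 1 in 6 of the 8 compared types, below 1 in Tfh and across 1 in CD8_02. The largest ratios were 1.19 (1.14 to 1.25) in Treg, 1.19 (1.12 to 1.26) in Th1_03 and 1.18 (1.11 to 1.25) in CD8_03. Th1_02 had 1.15 (1.07 to 1.23), CD8_01 1.09 (1.05 to 1.13) and Th1_01 1.09 (1.03 to 1.14). Tfh had 0.951 (0.907 to 0.997) and CD8_02 0.984 (0.936 to 1.03). Without Ly6a, Bst2 and Ifi27l2a the interval lay above 1 in 2 of the 8, CD8_03 at 1.13 (1.05 to 1.22) and Treg at 1.17 (1.07 to 1.29), and below 1 in CD8_02 at 0.927 (0.869 to 0.988). Tfh then stood at 1.07 (0.974 to 1.18).

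Few T cell members passed 1.5-fold in any type. In Treg 2 of 14 measured members were higher and 1 lower, against 4.59% and 7.51% of all genes measured there. In Th1_01 1 of 21 was higher and 1 lower, against 4.25% and 3.34%, in Th1_03 1 of 16 and 1, against 4.76% and 4.28%, and in CD8_02 1 of 22 and 1, against 3.2% and 3.44%. In the other 4 types 1 member was higher and 0 lower. These were CD8_01, with 26 members measured against 3.63% and 2.94% of all genes, CD8_03, with 18 against 4.59% and 3.56%, Tfh, with 16 against 4.3% and 5.43%, and Th1_02, with 18 against 3.65% and 4.15%.

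The nucleic acid sensors of the module are RIG-I (Ddx58), MDA5 (Ifih1), their relative LGP2 (Dhx58), which bind viral RNA in the cytosol, and ZBP1, which binds Z-form nucleic acid and can start cell death. All 4 had log2 ratios above 0 in pooled APCs and in pooled T cells, with medians of 0.31 and 0.25. Zbp1 stood at 34.9 CPM in the control APCs against 53.2 CPM in the RGX-104 APCs (1.53, 1.31 to 1.78). Ddx58 stood at 18.6 and 24.3 CPM (1.31, 1.05 to 1.62), Ifih1 at 36.5 and 38.9 CPM and Dhx58 at 11.9 and 14.0 CPM. Zbp1 was the sensor past 1.5-fold in pooled APCs, but its ratio was 1.36 without macrophages and 1.46 without pDC. Macrophages gave 2 of its 255 UMIs on control chow and 83 of 530 on RGX-104. Outside macrophages it was higher in rcDC1, at 21.8 and 39.4 CPM (1.80, 1.27 to 2.60), in rcDC2, at 22.5 and 47.5 CPM (2.11, 1.24 to 3.81), and in mono, at 154 and 208 CPM (1.35, 1.02 to 1.79). In mcDC1, mcDC2 and mLC it lay between 10.7 and 48.7 CPM, with intervals that included 1.

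In T cells Zbp1 stood at 56.4 and 74.3 CPM (1.32, 1.19 to 1.46). By type it was higher in CD8_01, at 47.4 and 70.0 CPM (1.48, 1.17 to 1.87), in Th1_03, at 43.8 and 66.4 CPM (1.52, 1.02 to 2.26), and in Treg, at 85.9 and 130 CPM (1.52, 1.05 to 2.20). Its interval included 1 in the other 5 types, and with every cell brought to 2000 UMIs the Treg ratio was 0.879.

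The transcription factors of the response, STAT2 and IRF9 of the ISGF3 complex and IRF7, which drives interferon alpha genes, differed little in pooled APCs. Irf7 stood at 74.6 and 75.3 CPM, Stat2 at 38.4 and 40.0 CPM, and Irf9 at 59.5 and 49.0 CPM (0.824, 0.722 to 0.939). By type Irf7 was uneven, with 268 and 260 CPM in mono but 0.956 and 3.88 CPM in mLC, from 1 and 4 UMIs. It was higher in rcDC2, at 53.0 and 86.5 CPM (1.63, 1.14 to 2.38), and in rcDC1, at 82.8 and 101 CPM (1.22, 1.01 to 1.49). In Th1_03 it was lower, at 55.7 and 32.1 CPM (0.576, 0.357 to 0.911; 0.333 with cells at 2000 UMIs), and pooled T cells had 51.8 and 45.8 CPM (0.884, 0.784 to 0.996).

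Stat2 gave the largest ratio of these factors, and it did so in T cells. In pooled T cells it stood at 20.1 and 28.9 CPM (1.43, 1.21 to 1.71). In Th1_02 it stood at 13.7 and 48.4 CPM (3.54, 1.85 to 7.20), from 13 and 40 UMIs, and in Th1_01 at 22.7 and 37.04 CPM (1.63, 1.01 to 2.70). In CD8_03 it went the other way, at 26.2 and 14.3 CPM, from 30 and 18 UMIs. Thinned to 2000 UMIs per cell, the Th1_01 ratio was 0.878.

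ISG15 is a ubiquitin-like protein that is joined to other proteins, HERC6 is the ligase that joins it in mice, and USP18 removes it and also damps the interferon receptor. In pooled APCs all 3 had log2 ratios below 0: Isg15 had 155 and 148 CPM (0.955, 0.883 to 1.03), Usp18 51.4 and 46.4 CPM, and Herc6 48.3 and 42.4 CPM. The pooled value of Isg15 hid opposite differences by type. In mcDC1, which held 684 of its 1135 control UMIs, Isg15 had a ratio of 0.506 (0.450 to 0.569), from 476 and 241 CPM. In mono the ratio was 1.87 (1.52 to 2.31), from 239 and 446 CPM. The 2 types thus exchanged places, mcDC1 having the most Isg15 on control chow and mono on RGX-104.

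Other APC types lay between these. In rcDC2 Isg15 stood at 148 and 196 CPM (1.32, 1.06 to 1.65) and in rcDC1 at 35.5 and 51.1 CPM (1.44, 1.08 to 1.93). In mLC it stood at 51.6 and 28.1 CPM (0.545, 0.334 to 0.871), from 54 and 29 UMIs, and in mcDC2 at 47.2 and 44.2 CPM. Single cells weighed on the small sums: the richest cell held 20% of control and 9.54% of RGX-104 Isg15 UMIs in mono, and 16.7% and 27.6% in mLC. Without the richest cell of each library, the mono ratio was 2.12 and the mcDC1 ratio 0.514. Macrophages, too few to compare, had 26.7 and 225 CPM, from 4 and 140 UMIs.

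In T cells Isg15 stood at 75.3 and 91.1 CPM (1.21, 1.10 to 1.33), and its interval included 1 in all 8 compared types. Usp18 and Herc6 showed another distribution, being abundant in migratory cells. Usp18 had 85.0 and 59.1 CPM in mLC (0.695, 0.493 to 0.974), 88.3 and 63.9 CPM in mcDC1 (0.723, 0.562 to 0.930), and 67.4 and 70.9 CPM in mcDC2. In rcDC2 it was higher, at 22.5 and 40.2 CPM (1.79, 1.04 to 3.25), from 17 and 66 UMIs, and the ratio was 6.74 with cells at 2000 UMIs. Herc6 had 94.6 and 88.2 CPM in mLC against 15.01 and 15.2 CPM in rcDC1, and its interval included 1 in all 6 APC types.

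The RNA-directed effectors are the IFIT proteins, which hold foreign RNA, the OAS family, which makes the second messenger of RNase L, the kinase PKR (Eif2ak2), which halts translation, and the exonuclease ISG20. In pooled APCs 10 of the 11 were measured, 9 had log2 ratios above 0, and 2 were at least 1.5-fold higher, with a median of 0.37. Ifit2 stood at 7.39 and 12.8 CPM (1.73, 1.25 to 2.42) and Oas2 at 3.83 and 6.13 CPM (1.60, 1.01 to 2.60). Oasl1 stood at 8.21 and 11.95 CPM, Oas1a at 17.5 and 23.8 CPM, Ifit3 at 6.70 and 8.94 CPM and Oasl2 at 17.9 and 22.4 CPM. Ifit1 was the one below 0, at 8.62 and 7.13 CPM (0.827, 0.581 to 1.18). Ifit3b, with 8 and 24 UMIs, was not measured, and reads of Ifit3 and Ifit3b, near-identical genes, may have been split between them.

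These are scarce transcripts, so few types had enough UMIs. Macrophages held 3 control and 35 RGX-104 UMIs of Ifit2. In rcDC1 Ifit2 stood at 7.28 and 14.4 CPM (1.98, 1.08 to 3.82), and 1 cell held 50% of the control and another 45.9% of the RGX-104 UMIs; with cells at 2000 UMIs the ratio was 3.91. Oasl2 in mono stood at 86.3 and 145 CPM (1.68, 1.18 to 2.43), and the ratio was 0.863, on few UMIs, with cells at 2000 UMIs. In pooled T cells all 11 were measured with a median log2 ratio of 0.05, and none differed by 1.5-fold: Ifit1 stood at 20.1 and 18.9 CPM and Ifit2 at 17.1 and 16.3 CPM.

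The other antiviral effectors include viperin (Rsad2), which makes a chain-terminating nucleotide together with CMPK2, the membrane tether tetherin (Bst2), the receptor chaperone RTP4, SAMD9L, which represses translation, and TRIM30a, a brake on inflammatory signalling. In pooled APCs 6 were measured, with a median log2 ratio of -0.12. Rtp4 was at least 1.5-fold higher, at 15.5 and 26.4 CPM (1.71, 1.37 to 2.15), and Bst2 at least 1.5-fold lower, at 592 and 268 CPM (0.454, 0.432 to 0.476). Rsad2 stood at 28.0 and 36.9 CPM (1.31, 1.10 to 1.57) and Trim30a at 80.4 and 80.1 CPM. Of the 113 and 263 UMIs of Rtp4, mono held 61 and 106, or 112 and 155 CPM (1.39, 1.003 to 1.93). The rcDC2 cells held 37 and 109, or 49.0 and 66.4 CPM (1.36, 0.926 to 2.02).

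Bst2 is a defining marker of pDC, whose number differed between the libraries. It stood at 4838 and 4668 CPM in pDC, and without pDC its ratio was 0.823. In the compared types it was lower in mcDC1, at 375 and 232 CPM (0.618, 0.545 to 0.700). Its interval included 1 in the other 5 APC types. In pooled T cells Bst2 stood at 154 and 153 CPM, and it was lower in Tfh, at 136 and 94.98 CPM (0.698, 0.490 to 0.984). Samd9l was lower in rcDC2, at 83.5 and 55.5 CPM (0.664, 0.477 to 0.931), and higher in CD8_02, at 47.8 and 65.9 CPM (1.38, 1.03 to 1.85). Trim30a was higher in CD8_01, at 57.8 and 73.3 CPM (1.27, 1.02 to 1.58), and in CD8_03, at 68.2 and 92.0 CPM (1.35, 1.004 to 1.82).

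Ifi203, Ifi209 and Ifi213 belong to the PYHIN family, DNA-binding proteins encoded in a cluster on chromosome 1 whose genes are alike enough that reads may be shared. In pooled APCs Ifi203 stood at 55.0 and 53.6 CPM, Ifi209 at 56.9 and 59.4 CPM and Ifi213 at 7.66 and 11.7 CPM (1.52, 1.10 to 2.13). With cells thinned to 2000 UMIs the Ifi213 ratio was 0.874. In Treg Ifi203 was higher, at 192 and 309 CPM (1.61, 1.27 to 2.05), although pooled T cells had 213 and 214 CPM. Ifi209 was lower in CD8_02, at 80.1 and 59.6 CPM (0.745, 0.572 to 0.966).

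The remaining induced genes held the most uneven member, Ly6a. In pooled APCs it stood at 141 and 203 CPM (1.45, 1.34 to 1.56). In mono it stood at 116 and 754 CPM (6.51, 5.01 to 8.60), in rcDC2 at 25.2 and 112 CPM (4.45, 2.77 to 7.57), and in rcDC1 at 44.6 and 72.9 CPM (1.64, 1.27 to 2.11). Migratory cells had almost none, with at most 12 UMIs per library in mLC, mcDC1 and mcDC2. The richest cell held 28.6% of control Ly6a UMIs in mono and 42.1% in rcDC2, and without the richest cell of each library the ratios were 7.95 and 5.70. Macrophages had 5 and 651 UMIs, or 33.4 and 1047 CPM, and pDC had 1543 and 3003 CPM. Macrophage markers within mono summed to 1005 and 1166 CPM and within rcDC2 to 280 and 299 CPM, and monocyte markers to 1774 and 2199 CPM in mono and 70.2 and 88.4 CPM in rcDC2. Their part in the Ly6a ratios was not tested.

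Ly6a was higher in T cells as well, at 251 and 349 CPM pooled (1.39, 1.32 to 1.46). It was higher in all 3 CD8 types, at 86.4 and 199 CPM in CD8_01 (2.30, 1.96 to 2.70), 54.2 and 127 CPM in CD8_02 (2.35, 1.84 to 3.02) and 81.3 and 148 CPM in CD8_03 (1.82, 1.41 to 2.36). Sca-1 is also a marker of activated and memory T cells, and its levels were higher to begin with in Treg, at 914 and 1278 CPM (1.40, 1.25 to 1.56), and in Tfh, at 640 and 832 CPM (1.30, 1.14 to 1.48). Th1_02 had 198 and 293 CPM (1.48, 1.22 to 1.80) and Th1_03 231 and 309 CPM (1.34, 1.12 to 1.59). The interval included 1 in Th1_01, at 308 and 324 CPM (1.05, 0.914 to 1.21).

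Ifi27l2a went the other way in pooled APCs and in 4 of the 6 compared APC types. It stood at 413 and 324 CPM pooled (0.784, 0.746 to 0.824), at 2689 and 2131 CPM in mono (0.792, 0.736 to 0.853), at 537 and 400 CPM in rcDC2 (0.746, 0.658 to 0.847) and at 262 and 175 CPM in mcDC1 (0.666, 0.574 to 0.771). In mcDC2 it stood at 312 and 66.8 CPM (0.214, 0.157 to 0.289), but 1 control cell held 59.0% of the UMIs, and without the richest cell of each library the ratio was 0.469. In mono and rcDC2, then, Ly6a was higher and Ifi27l2a lower in the same types. In types too small to compare, Ifi27l2a gave 6.31% and 19.1% of module UMIs in pDC and 14.1% and 17.4% in pre-DC2. The sum was higher in the RGX-104 library in both, so Ifi27l2a was higher there. In macrophages it gave 17.0% and 4.73%. In T cells Ifi27l2a stood at 859 and 857 CPM pooled. It was lower in Tfh, at 3454 and 2937 CPM (0.851, 0.799 to 0.905), and higher in Treg, at 2834 and 3245 CPM (1.14, 1.07 to 1.22), in CD8_03 (1.25, 1.11 to 1.42), in Th1_01 (1.18, 1.08 to 1.29), in Th1_02 (1.20, 1.06 to 1.35) and in Th1_03 (1.40, 1.25 to 1.56).

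Of the other 4 induced genes, Parp14, a mono-ADP-ribosyltransferase, stood at 56.5 and 69.2 CPM in APCs and Xaf1, which promotes cell death, at 22.8 and 28.6 CPM. Ifi35 stood at 74.6 and 68.5 CPM, and Ifi44 had 26 and 49 UMIs. Parp14 was higher in Tfh, at 71.5 and 131 CPM (1.83, 1.27 to 2.67), and in rcDC1, at 22.7 and 37.4 CPM (1.65, 1.16 to 2.36), though 0.880 with cells at 2000 UMIs. Xaf1 was lower in CD8_01, at 40.4 and 28.6 CPM (0.708, 0.516 to 0.965). Ifi35 was lower in pooled T cells, at 57.5 and 48.9 CPM (0.850, 0.758 to 0.954), in CD8_02, at 57.1 and 35.2 CPM (0.617, 0.442 to 0.856), and in Treg, at 98.4 and 55.8 CPM (0.567, 0.354 to 0.890). Ifi44 was measured in APCs alone, since T cells had 12 and 19 UMIs.

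**Figure D2:**
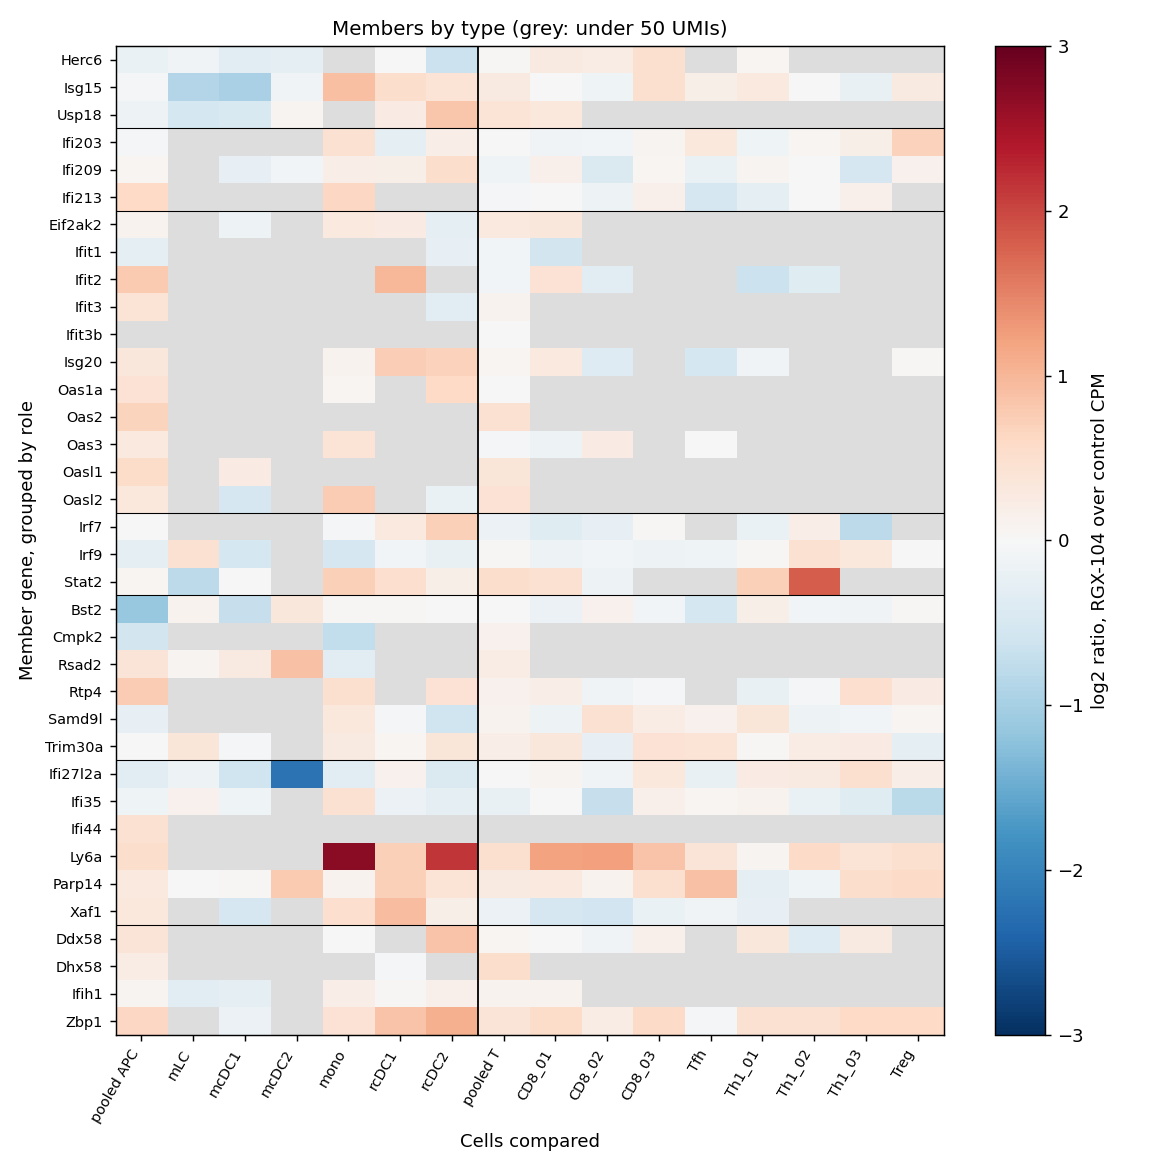
Log2 ratio of RGX-104 over control for each member (rows, grouped by role) in pooled cells and in each compared type (columns). Grey cells had under 50 UMIs over both libraries. The strongest red is Ly6a in mono, at 6.51-fold, and the strongest blue is Ifi27l2a in mcDC2, at 0.214-fold; the Isg15 row is blue in mcDC1 and red in mono.

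The IFN-responsive T cells are the authors' type richest in the module, and most members were lower there in the RGX-104 library. With 39 control and 70 RGX-104 cells they fall outside the types compared, and the clustering that named them used these genes, so the values are a description. The module ratio was 0.820 (0.777 to 0.866). Of the 27 measured there 3 lay above and 8 below the 1.5-fold lines, against 9.25% and 6.25% of all 1471 genes measured there, and the median of their log2 ratios was -0.31. Ifit1 stood at 551 and 228 CPM (0.414, 0.310 to 0.552), Ifi209 at 358 and 178 CPM, Rsad2 at 208 and 105 CPM (0.505, 0.320 to 0.795) and Isg15 at 913 and 731 CPM (0.801, 0.663 to 0.968). Ly6a again stood apart, at 478 and 978 CPM (2.04, 1.63 to 2.58).

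Around the module, the interferons themselves were hardly seen. The 20 listed type I and III interferon genes had 0 UMIs in annotated cells of both libraries. A count of 0 allows levels up to 0.410 CPM (control) and 0.301 CPM (RGX-104) in APCs and 0.262 and 0.265 CPM in T cells, on a limit of 3 counts. Ifng, which encodes interferon gamma, had 58 UMIs in control and 275 in RGX-104 T cells, or 5.06 and 24.3 CPM (4.81, 3.61 to 6.49). Of these, the cells named Cytotoxic T held 4 and 102 UMIs, CD8_01 0 and 86, and Tfh 24 and 34. The cells named Cytotoxic T numbered 16 and 44, and how many cells carried the Ifng UMIs is not given here.

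Receptors and their kinases differed little. Of the 10 listed, which were all measured in APCs, 0 passed 1.5-fold in either direction, and Ifnar1 stood at 67.9 and 69.7 CPM and Ifnar2 at 120 and 109 CPM. In T cells Ifnar1 stood at 82.4 and 94.5 CPM (1.15, 1.05 to 1.25). Of 15 upstream sensing genes in APCs 0 were higher and 1 lower, Tlr7, an endosomal RNA receptor of pDC, at 14.4 and 8.04 CPM (0.559, 0.413 to 0.755). The cells named pDC numbered 53 and 9, and this pooled ratio was not repeated without them. Of 10 brakes on the pathway 0 passed 1.5-fold in APCs and 0 in T cells, and Socs1 stood at 102 and 102 CPM in APCs. In T cells 0 of 9 measured receptor and kinase genes passed, and 2 of 13 sensing genes were higher, Irf5 and Ticam1, on at most 40 UMIs per library.

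Other interferon-induced genes outside the list were counted in the same way. Of 43 measured in APCs 6 were higher and 1 lower, against 4.14% and 4.44% of all genes, and the median log2 ratio was 0.14. This pooled count and the pooled ratios below were not repeated without macrophages, which numbered 27 and 52 cells. Ifitm1, a membrane protein that blocks viral entry, stood at 12.2 and 38.1 CPM (3.13, 2.48 to 3.98), Lgals3bp at 38.2 and 71.4 CPM (1.87, 1.63 to 2.16) and Ifi47, a GTPase, at 28.3 and 47.7 CPM (1.68, 1.43 to 1.99). Ifi206 had a ratio of 1.84 (1.04 to 3.37) and Ifi214 one of 1.58 (0.899 to 2.89), and Gm4951 had 1 and 57 UMIs. Phf11a was lower, at 44.6 and 25.1 CPM (0.563, 0.476 to 0.666). Of 39 measured in T cells 2 were higher and 0 lower, against 2.92% and 1.66% of all genes, namely Ifitm3 with a ratio of 1.81 (1.22 to 2.71) and Ly6c1 at 56.2 and 89.7 CPM (1.60, 1.45 to 1.77).

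In pooled cells the list of interferon gamma response genes stood higher than the module. Of 26 in APCs 10 passed 1.5-fold upwards and 0 downwards, against 4.14% and 4.44% of all genes, and their median log2 ratio was 0.38 against 0.23 for the module. In T cells 4 of 25 passed upwards and 0 downwards, against 2.92% and 1.66%, with medians of 0.30 and 0.10. The gap was widest in mono, where 15 of 24 were higher with a median of 1.03, beside 5 of 26 members with a median of 0.28 and 7.8% of all genes. In mcDC1 0 of 18 were higher and 1 lower, against 4.46% and 5.6%. The median of the gamma list was below that of the module in rcDC1 (0.10 and 0.21) and rcDC2 (0.08 and 0.19). It was also below in CD8_03 (0.13 and 0.16) and Treg (0.13 and 0.16), and above it in the other compared types. The pooled APC count of this list was not repeated without macrophages. In APCs Gbp2, a guanylate-binding protein gene, stood at 97.3 and 187 CPM (1.92, 1.76 to 2.10), Gbp7 had a ratio of 4.66 (3.29 to 6.79) and Gbp6 one of 4.23 (2.65 to 7.08). The chemokine Cxcl10, which also answers type I interferon, stood at 38.3 and 137 CPM (3.57, 3.14 to 4.07) and Cxcl9 at 177 and 440 CPM (2.48, 2.33 to 2.64). In T cells Iigp1 had a ratio of 3.01 (2.59 to 3.52), Irgm2 one of 1.64 and Igtp one of 1.61, all GTPases that act on intracellular microbes, and Cd274 one of 1.54. The difference between the 2 lists was not tested.

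Module transcripts were spread unevenly over cells in most types. Where cells differ, the variance-to-mean ratio used here rises with the mean, so it does not rank types of unlike means. With each cell thinned to 2000 UMIs, mLC had a mean of 1.84 module UMIs per control cell and a variance-to-mean ratio of 1.04, close to the value of 1 that Poisson counts have. In mono the mean was 11.1 in control and 12.1 in RGX-104 cells, with variance-to-mean ratios of 6.52 and 5.94. The rcDC1 cells had medians of 2 and 2 UMIs but ratios of 6.89 and 7.59, which rested on few cells: 1 control cell had 43 UMIs and the next 9, and 2 RGX-104 cells had 39 and 31 and the next 11. The richest control rcDC1 cell carried UMIs of 23 different members, and among RGX-104 cells the most was 18. In rcDC2 the ratios were 6.19 and 7.60, with up to 28 and 47 UMIs in a cell.

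The migratory types also differed among themselves. In mcDC1 the mean was 4.12 in control and 2.71 in RGX-104 cells, and the medians were 3 and 2. The variance-to-mean ratios were 4.25 and 2.83, and the cell with most module UMIs had 28 and 19. All of these were lower in the RGX-104 library, and a lower mean can by itself lower the ratio. In mcDC2 the ratios were 2.58 and 1.09. Among T cells Tfh had ratios of 8.37 and 6.13 and Treg 7.95 and 8.32, against 2.06 and 2.71 in CD8_01. Mean module UMIs differed too, at 10.6 and 10.9 in Tfh, 11.5 and 13.3 in Treg, and 3.57 and 3.86 in CD8_01. Without Ly6a, Bst2 and Ifi27l2a the ratios were 2.76 and 3.30 in Tfh, 5.58 and 4.04 in Treg, and 1.55 and 1.94 in CD8_01. In mcDC2 they were then 1.40 and 1.09, and in mcDC1 4.11 and 2.31. Thinning left out 22 control and 36 RGX-104 APCs, and 41 and 27 T cells, that had fewer UMIs.

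**Figure D3:**
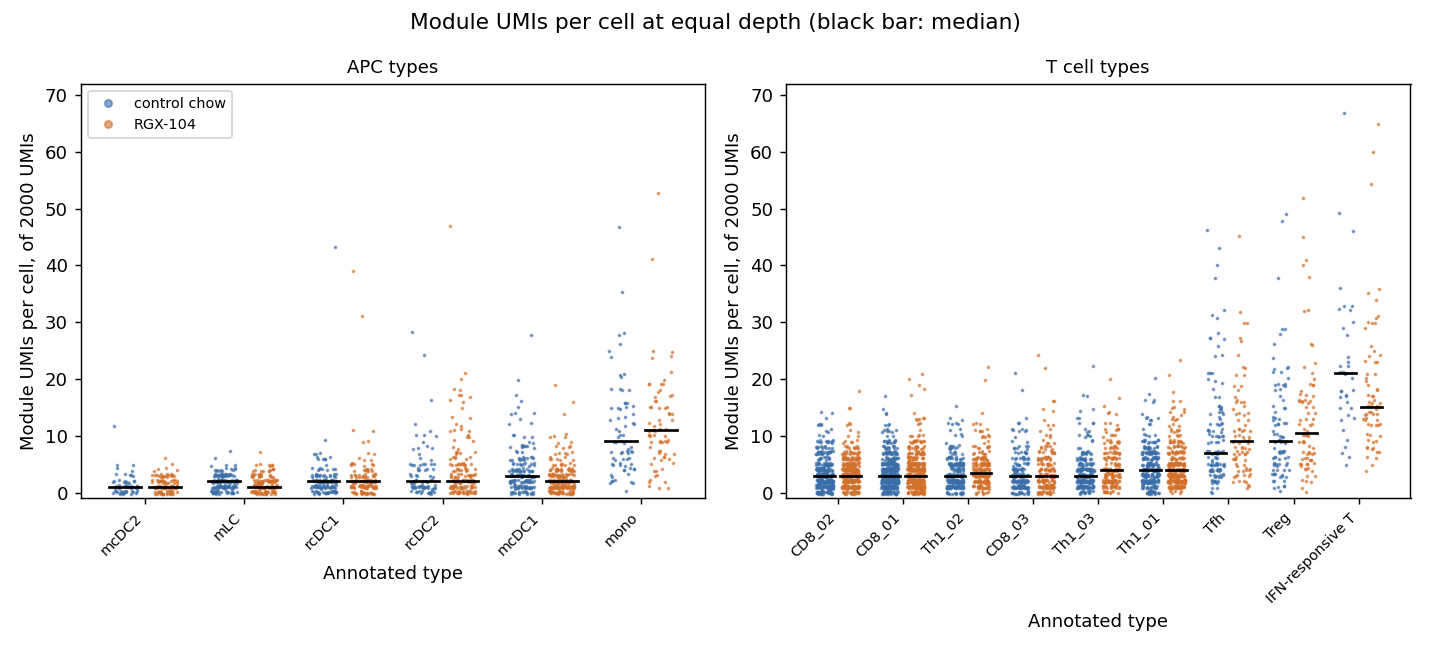
Module UMIs per cell after thinning each cell to 2000 UMIs, by type and library; each point is a cell and the black bar is the median. The rcDC1 cells crowd near 2 UMIs with single cells up to 43, while mono cells spread widely around medians of 9 and 11.

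Members also went together from cell to cell. Within each compared type and library, cells were ranked by the UMIs of all other members, and each member's level in the top 10% of cells was set against the rest. In control APCs (64 cells against 587) 13 of the 15 members measured had a level 1.5-fold or more above the rest in these top cells, against 12.7% of all measured genes, and in RGX-104 APCs (80 against 739) 16 of 18, against 10.5%. In T cells 22 of 24 were higher in the control library (191 cells against 1720), against 8.86% of all genes, and 22 of 24 in the RGX-104 library (176 against 1585), against 7.31%. Median ratios were 2.50 and 2.38 in APCs and 1.96 and 2.02 in T cells, and no member was 1.5-fold lower.

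Among members with at least 50 UMIs in these cells Isg15 went most closely with the others in RGX-104 APCs, at 756 CPM in the top cells and 95.4 CPM in the rest, a ratio of 7.93 (6.17 to 10.2), against 4.13 (3.09 to 5.48) in control APCs. Scarcer members had larger ratios on wide intervals, such as Oas3 at 23.1 (6.66 to 101), from 10 and 4 UMIs. Irf7 had ratios of 5.50 and 5.60 and Samd9l of 3.72 and 3.74. The abundant Ifi27l2a followed less, at 1.84 and 1.66. Irf9, part of the factor that drives the module, had 1.33 (0.610 to 2.59) in control and 0.909 (0.321 to 2.09) in RGX-104 APCs. Herc6 had 1.29 (0.564 to 2.60) and 1.92 (1.02 to 3.39) in the same cells. In T cells Oas3 had 5.21 (2.94 to 9.04) and 4.05 (2.19 to 7.23), Isg15 3.53 and 4.41, and Rtp4 3.49 and 3.56. Stat2 in control T cells had 1.001 (0.387 to 2.18) and Ifit2 1.05 (0.405 to 2.30).

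**Figure D4:**
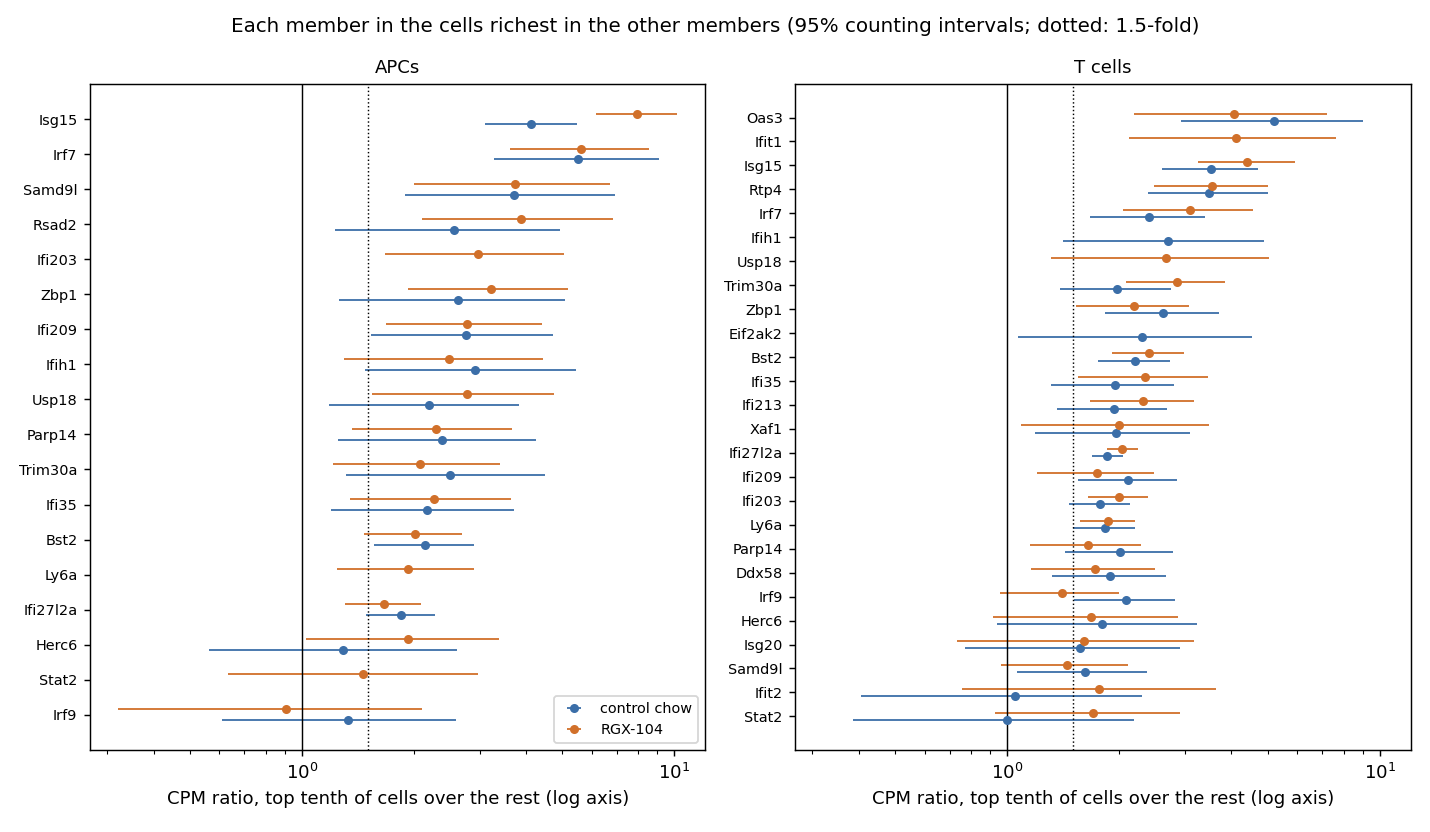
Ratio (log axis) of the CPM of each member with at least 50 UMIs in the 10% of cells with most UMIs of the other members over its CPM in the remaining cells, in APCs and T cells of each library, with 95% counting intervals. The dotted line marks 1.5-fold. Most members plotted lie to the right of it, Isg15 furthest of those plotted in RGX-104 APCs at 7.93, and Irf9 lies near 1 in APCs.

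Genes outside the list that were higher in the same cells included further interferon-induced genes. In APCs these were Cxcl9, at 5.04-fold in control and 3.08-fold in RGX-104 cells, Ms4a4c at 3.46 and 3.16, and Ifitm3 at 2.26 and 2.36. The control list went on with Cxcl10 (4.84), Phf11b (2.77), Ifi207 (3.44), Ccnd2, Ccl4, Serpina3g and Tagln2, and the RGX-104 list with Irgm1 (4.11), Ly6c2 (2.75), Wfdc17, Ccl17 and Pnp. The RGX-104 list was headed by Camp and S100a9, granule and calcium-binding protein genes of neutrophils, with 66 and 50 UMIs in the top cells and 0 in the rest. All of these UMIs lay in mcDC1, with 1 cell carrying Camp and 1 cell carrying S100a9. The 6 neutrophil markers summed to 1256 CPM in the top cells and 6.09 CPM in the rest, and Ly6g and Retnlg were at 0 in mcDC1, the type where the 6 summed to 764 CPM. Their part in the member ratios was not tested.

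In T cells the genes outside the list that went with it in both libraries were Rnf213, at 2.81-fold and 2.32-fold, Dtx3l at 2.69 and 2.37, and Iigp1 at 3.00 and 2.78. The control list also held Slfn1, Gbp2, Ifi206, Trim12c, Trim21, Daxx and Gbp7, with ratios from 2.24 to 2.64. The RGX-104 list also held Parp9, Gbp6, Ifi47, Mtmr6, Cramp1l and the receptor segments Trbv20 and Trbv26, with ratios from 1.92 to 3.57.

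Across the 28 sums of type and library, the genes outside the list whose level went most closely with that of the summed module were Pkm, with Pearson's r = 0.90, Ptpn1 with 0.89, and Pou2f2, Hif1a and Cap1 with 0.88 each. Ppp1ca and Vmp1 had 0.87, and Ube2a, Tmem164 and Wdr26 0.86. These r values are over log2(CPM + 1), and the sums share libraries and depth and mix APC with T cell types. Within the 12 APC sums the leading gene was Cndp2 (0.97), and within the 16 T cell sums Hif1a (0.98). None of these 10 is a member of the pathway lists used here. Among members, whose own UMIs are part of the sum, Ifi27l2a had 0.93 and Zbp1 0.89, while Bst2 had 0.10, Herc6 -0.23 and Usp18 -0.57. These too differed by compartment, with 0.58 in APC and 0.13 in T cell sums for Bst2, -0.27 and 0.56 for Herc6, and -0.45 and -0.56 for Usp18. In the T cell sums Ifi27l2a had 0.99, so r with the summed module there is close to r with Ifi27l2a. Isg15 had 0.96 and Ly6a 0.90 in T cells. In contrast, Ifi213 had -0.84, Ddx58 -0.82, Oasl2 -0.76, Oas2 -0.68 and Irf7 -0.62, though most other members lay above 0.

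Clone size, taken from the T cell receptor, gave no single order. In the control library T cells in clones of 1 cell had 2511 CPM of module transcripts (1540 cells) and those in clones of at least 2 cells 2702 CPM (294 cells). In the RGX-104 library the values were 2769 CPM (1235 cells) and 2394 CPM (429 cells). Within CD8_01, the type with most such cells, they were 1795 and 1871 CPM on control chow and 1990 and 1937 CPM on RGX-104, with overlapping intervals in both. In Tfh they were 5550 and 6708 CPM on control chow but 5620 and 4221 CPM on RGX-104, on 24 and 13 cells in larger clones.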

How the data were processed

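Per the file headers, the deposited matrices come from Cell Ranger 5.0.0 and give counts of UMIs for each gene in each barcode. The submitters' processing notes name mm10 and Seurat 5.0.3. The annotation tables that the authors deposited give each cell its counts of UMIs and genes, its mitochondrial percent and a type. Their doublet column calls all 1731 APCs and 4094 T cells singlets, and no further doublet call was made. They carry no barcodes, so cells were joined by those 3 values, with genes in at least 3 barcodes counted, and all 5825 matched exactly 1 barcode. Symbols of all 36 members matched RefSeq genes of GRCm38.p6, and 28 had a promoter.

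Counts were summed per library and type and divided by the total. Intervals (95%) are exact Poisson for CPM and exact conditional binomial for ratios; code was tested on simulated data. A gene was measured at 50 UMIs over both libraries. Full values are given for members past 1.5-fold in pooled cells, the 8 with most UMIs, and up to 3 highest and 3 lowest per type by the interval bound nearest to 1. For genes outside the list, the 10 leading in r and in each set of top cells are named. The members and lists were chosen with earlier results of these data known. Python 3.11.15, numpy 2.4.6, scipy 1.17.1, pandas 2.3.3 and, for an alternative scaling, edgeR 4.0.16 (R 4.3.3) were used. Receptor contigs were not used here, and values of 1 pathway gene are not reported here.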

Additional observations from a re-analysis of the deposited data

Results flagged for a closer look

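The difference between the libraries went in opposite directions in different cell types, which is why the ratios below are given; the difference between types was not tested, and the intervals behind each direction cover counting error only. Among APCs the summed module was lower in the RGX-104 library in mcDC1 (ratio 0.710) and mcDC2 (0.765) and higher in mono (1.13), rcDC1 (1.14) and rcDC2 (1.09). Isg15 went the same way, lower in mLC (0.545) and mcDC1 (0.506) and higher in mono (1.87). Among T cells the module was lower in Tfh (0.951) and higher in CD8_01 (1.09), CD8_03 (1.18), Th1_01 (1.09), Th1_02 (1.15), Th1_03 (1.19) and Treg (1.19). The Tfh ratio was above 1 under 4 other settings: 1.06 as a mean over cells, 1.03 with cells thinned to 2000 UMIs, 1.07 without Ly6a, Bst2 and Ifi27l2a, and 1.12 without Ifi27l2a, the member with most UMIs. In mcDC2 1 control cell held 23.5% of the module UMIs, and the ratio was 0.939 without the richest cell of each library, 1.03 with cells thinned and 1.03 without Ifi27l2a. In mono the ratio was 1.02 without Ly6a.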

How the results depend on the processing

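No paired analysis was possible because each group has 1 library. The cause of each shift below was not tested. Of 239 summary values under alternative settings, 172 moved within set limits, 57 moved further and 10 reversed. The limits were counting error for ratios, 1.5 times for counts of members and the standard deviation over types for spread. Reversed means across 1 from a main interval that did not include 1. A crossing from an interval that included 1, as in CD8_02 when thinned (1.04), was not counted as reversed. Scaling moved the median log2 ratio of all genes by over 0.1 in mcDC2 alone, from -0.04 to 0.09.

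Pooled APC module (0.872): 0.911 with TMM and 0.911 with median-of-ratios factors, 0.852 as a mean over cells, 0.836 thinned to 2000 UMIs, 0.823 without macrophages and 0.833 without Ly6a, but above 1 with types at equal weight (1.01), without pDC (1.04), without the member with most UMIs (1.02) and without Ly6a, Bst2 and Ifi27l2a (1.06). Members at least 1.5-fold higher there numbered 1 when thinned, 1 without macrophages, 2 at 200 UMIs and 0 at 2-fold; members lower numbered 2 without macrophages, 2 without cells holding transcripts of another lineage and 0 without pDC. The median log2 ratio was -0.062 when thinned.

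Pooled T cell module (1.07): 1.09 with restricted totals (immune receptor, mitochondrial and ribosomal protein genes left out), 1.10 as a mean over cells, 1.10 thinned, 1.09 with types at equal weight, 1.04 without IFN-responsive T, 1.10 without the member with most UMIs and 1.03 without Ly6a. Members higher numbered 1 when thinned, 1 without IFN-responsive T, 1 at 10 UMIs and 2 with types at equal weight.

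Thinned module ratios were 0.658 in mcDC1, 1.03 in mcDC2, 1.16 in rcDC2, 1.04 in CD8_02 (median log2 0.0084), 1.10 in CD8_03 and 1.03 in Tfh. Without the member with most UMIs they were 0.774 in mcDC1, 1.03 in mcDC2, 1.45 in mono, 1.22 in rcDC2, 1.12 in Tfh and 1.11 in Th1_03. Without Ly6a, Bst2 and Ifi27l2a they were 0.988 in mcDC2, 1.26 in mono, 1.18 in rcDC2, 1.04 in CD8_01, 0.927 in CD8_02, 1.07 in Tfh and 1.08 in Th1_03. Without Ly6a, they were 1.02 in mono, 1.03 in CD8_01 and 0.906 in Tfh. Without cells holding transcripts of another lineage they were 0.970 in mcDC2, 1.02 in rcDC2 and 1.27 in Treg. As a mean over cells they were 0.900 in mcDC2 and 1.06 in Tfh, with median-of-ratios factors 1.19 in mono, and without the richest cell of each library 0.939 in mcDC2.

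Thinned single members that reversed were Ifi213 in APCs (0.874), Oasl2 in mono (0.863), Xaf1 (0.978) and Parp14 (0.880) in rcDC1, Stat2 in Th1_01 (0.878) and Zbp1 in Treg (0.879). Thinning also took Usp18 in rcDC2 from 1.79 to 6.74, Ifit2 in rcDC1 from 1.98 to 3.91 and Irf7 in Th1_03 from 0.576 to 0.333. These thinned values of single members have no interval and rest on few UMIs, so they say little on direction or size. The highest over the lowest compared type (6.06 and 8.50 in control and RGX-104 APCs, 3.40 and 3.68 in T cells) was 4.53 and 5.77, and 1.51 and 1.72, without the 3 genes, 6.91 in control APCs as a mean over cells, and 2.80 and 2.78 in T cells with restricted totals. The median variance-to-mean ratio of control APC types (5.22) was 2.81 at 1000 UMIs. With all UMIs of each cell, 28 and 32 members were higher in the top cells of control and RGX-104 APCs. Leaving out Ly6a, and single members without pDC or without macrophages, were chosen after seeing the data.

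Depth limits the scarce members most: IFIT, OAS and Ifi44 transcripts had too few UMIs in most types, and the thinned value of Ly6a in rcDC2 could not be had. Without replicate libraries, a difference between mice cannot be told apart from one between chows.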
